A study of Mus musculus with 12 samples.

Results

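The CC, CXC and XC chemokines and their receptors were described in hippocampal microglia of young control mice, as every endogenous gene of an immune panel whose symbol starts with Ccl, Ccr, Cxcl, Cxcr, Xcl or Xcr. Of the panel's 545 endogenous genes, 42 belong to this family: 24 ligands (15 Ccl, 8 Cxcl and 1 Xcl) and 18 receptors (9 Ccr, 2 Ccrl, 6 Cxcr and 1 Xcr). The symbols alone decided which genes belong, and no level or change entered that rule. The choice was made with earlier results of these data known. Microglia, the resident macrophages of the brain, came from the hippocampus of male Balbc mice raised under control conditions and were taken at postnatal day 14 (P14, 6 animals) or postnatal day 28 (P28, 6 animals), with each animal from a different litter. The cells were enriched on a Percoll gradient and sorted by flow cytometry, and their RNA was hybridised to the mouse immune panel of nCounter, in which a fluorescent barcode on each probe is counted without sequencing. The stressed animals of the wider study of early life stress were not analysed here, and the markers used for the sort are not given in the sources used here.

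Chemokines are small secreted proteins that guide migrating cells, and they are classed as CC, CXC or XC by how the cysteines near their amino terminus are spaced. They act through receptors that couple to inhibitory G proteins. Most inflammatory ligands bind more than 1 receptor and most inflammatory receptors more than 1 ligand, while several homeostatic pairs, such as Cxcl12 with Cxcr4, are more exclusive. A few receptors with the older names Ccrl are atypical: they bind ligands without the usual signalling. In the brain, microglia are known as a source of Ccl2, Ccl3, Ccl4 and Ccl12 when activated.

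Raw counts of the 545 genes summed to 356398 to 1534665 per sample, and P14 sample 5 was the lowest. Levels are given as scaled counts: raw counts divided by a factor from 6 reference genes (Alas1, Gapdh, Oaz1, Polr1b, Sdha and Tbp), whose value for P14 sample 5 was 0.404. A count was called above background when it was over a lane threshold set 2 SD above the mean of the lane's 8 negative probes, which came to 12.9 to 32.0 raw counts at P14 and of 24.8 to 33.4 at P28. P14 samples 4 and 5 stood apart: both lay below all other P14 samples in 172 of the 366 present genes and above all of them in 48. The spiked positive-control probes did not overlap between the ages, with geometric means of 542 to 651 counts at P14 and 1069 to 1235 at P28. The labels name no run or cartridge, so the conditions of the run and the age cannot be told apart. A lower count in sorted bulk cells may reflect fewer cells of a type or less RNA per cell, which cannot be told apart here. Probes differ in capture and amplification, so levels are compared between samples, not between genes.

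Of the 42 genes, 25 were present, meaning above background in at least 40% of the 12 samples, and 17 were not. The share was 59.5% for the family and 67.2% for all 545 genes. The rule was met by 13 of 18 receptors (72.2%) and by 12 of 24 ligands. In all 12 samples, 7 ligands (Ccl2, Ccl3, Ccl4, Ccl6, Ccl7, Ccl12 and Ccl24) and 4 receptors, among them Ccr2, Ccr6 and Cxcr6, exceeded the lane threshold. At the other end, 9 genes never exceeded it: the ligands Ccl8, Ccl19, Ccl22, Ccl26, Cxcl1, Cxcl3, Cxcl13 and Xcl1, and the receptor Ccr4. A count under the lane threshold was not detectable at this depth, which does not show that the RNA is absent. The number of ligands above background per sample ranged from 10 to 16 at P14 (median 12) and from 8 to 13 at P28 (median 11.0). For receptors the range was 8 to 15 at P14 (median 13.0) and 8 to 11 at P28 (median 9.5). Both ranges overlapped between the ages, and the raw thresholds were higher at P28, with a median of 28.5 against 17.4 counts at P14. All ligand probes together made up 0.530% to 1.26% of endogenous counts at P14 and 0.511% to 1.07% at P28, and all receptor probes 1.83% to 2.78% and 2.05% to 2.64%.

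**Figure D1:**
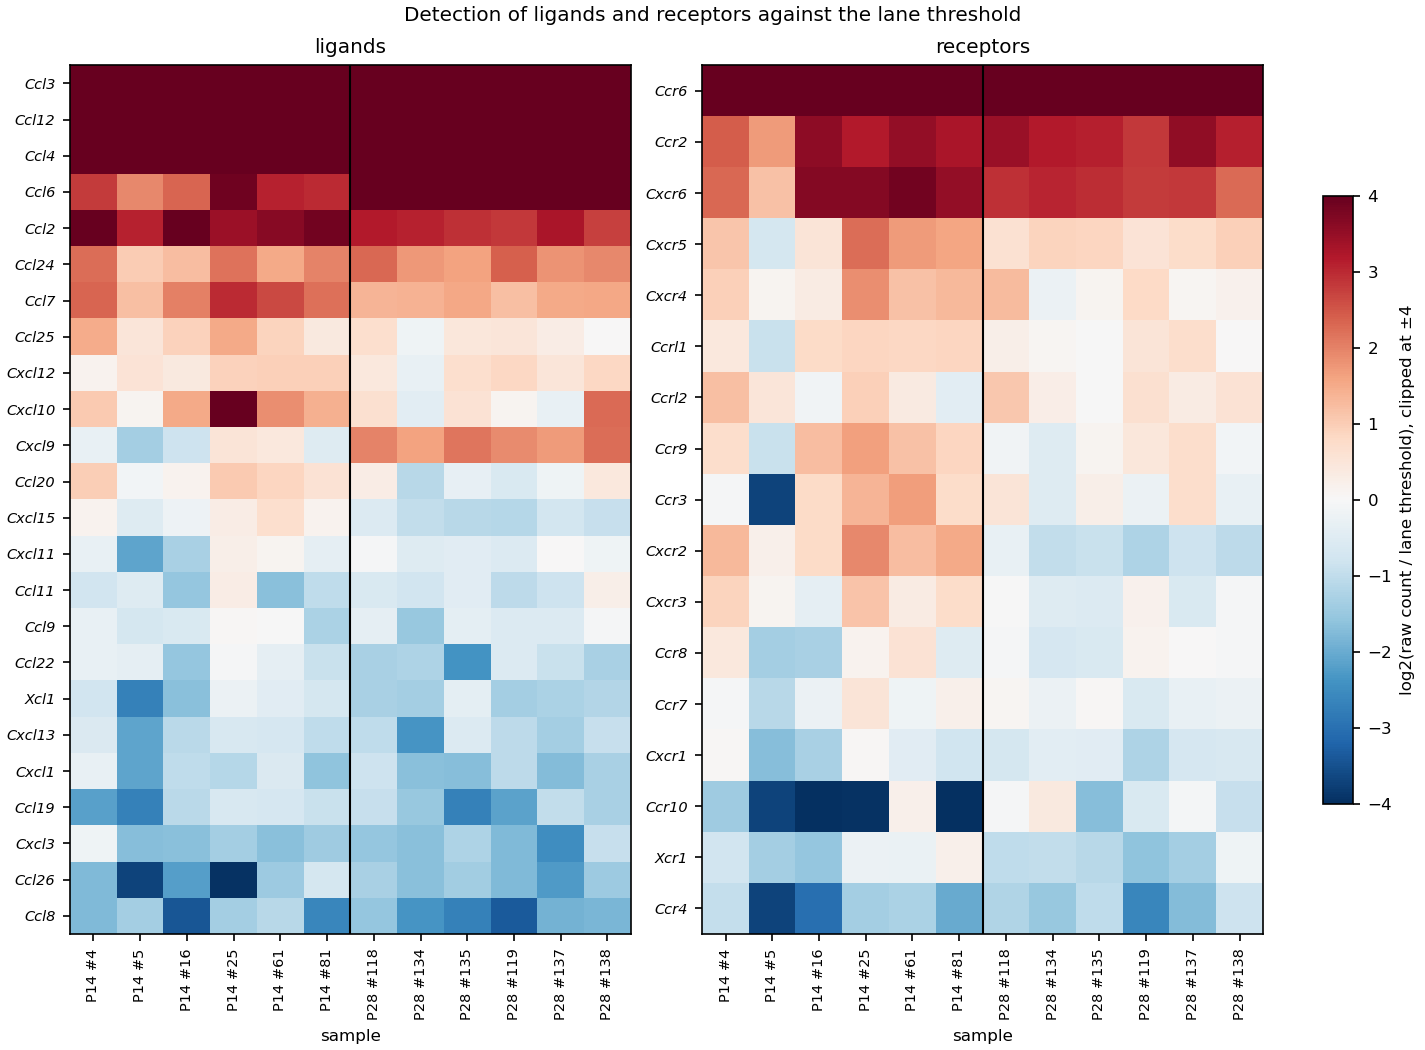
Raw count over the lane threshold on a log2 scale, clipped at 4 in both directions, for the 24 ligands (left) and 17 of the 18 receptors (right) in each of the 12 samples; red is above the threshold, blue below it, and the black line separates P14 from P28. Ccl2, Ccl3, Ccl4, Ccl6, Ccl7, Ccl12, Ccl24, Ccr2, Ccr6 and Cxcr6 are red in every sample, Cxcl9 turns red at P28 and Cxcr2 turns blue.

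Between P14 and P28, 5 of the 25 present genes rose (Cxcl9, Ccl6, Ccl4, Ccl24 and the receptor Ccr6) and 2 fell (Ccl7 and the receptor Cxcr2) at a false discovery rate of 0.05. Over all 366 present genes of the panel, 30.6% were called, 16.7% higher and 13.9% lower at P28, so the 7 calls among 25 genes are near the panel's background. The ligands held 4 rises and 1 fall among 12, and the receptors 1 rise and 1 fall among 13. The median log2 fold change (P28 over P14) was -0.17 for ligands and -0.17 for receptors, against 0.0026 for all 366 genes. Positive values were found in 9 genes and negative values in 16, and 12 had an unadjusted p under 0.05. Over all 366 genes, 183 values were positive, 183 were negative and 158 had an unadjusted p under 0.05. In 4 of the 25 genes the 6 samples of each age did not overlap (Cxcl9, Ccl6 and Ccr6 higher, Cxcr2 lower), against 20.8% of all present genes.

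**Figure D2:**
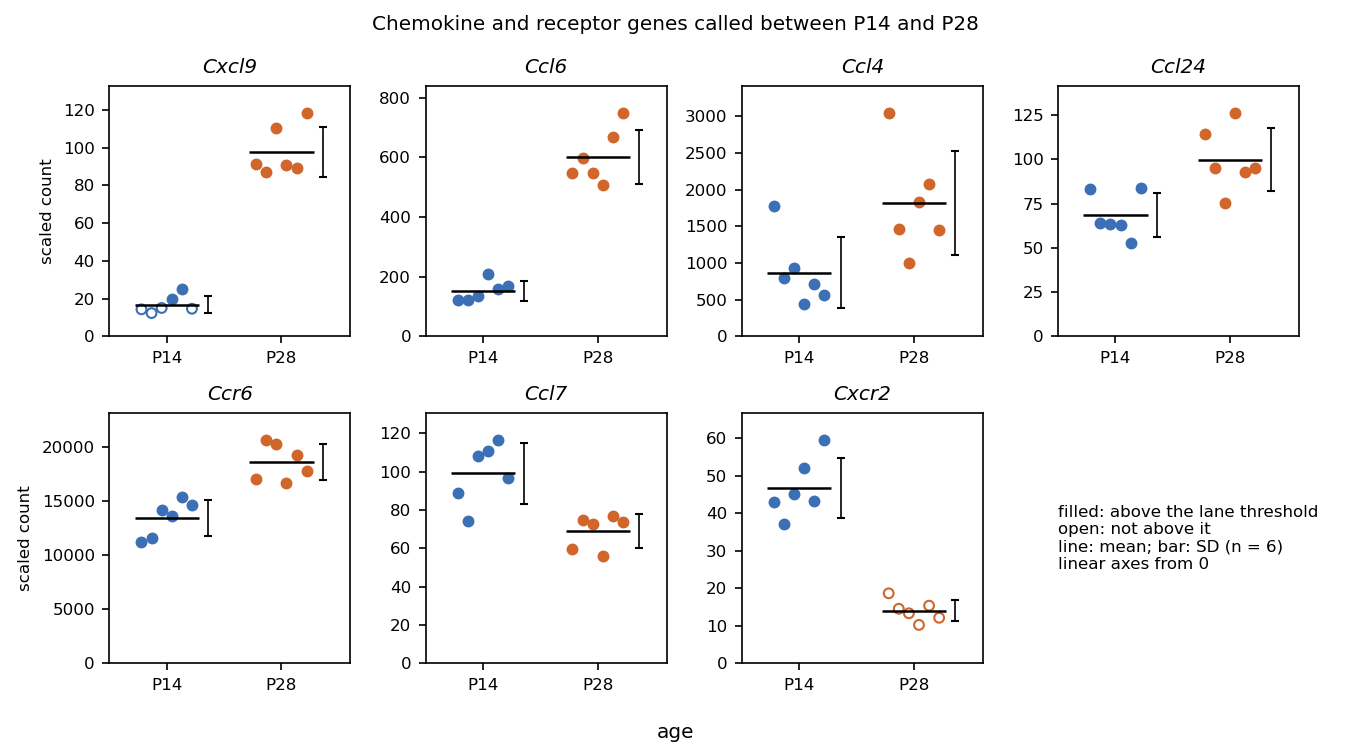
Scaled counts of the 7 called genes in each of the 6 P14 and 6 P28 samples, on linear axes from 0; lines are means, bars are SD, filled points are above the lane threshold and open points are not. The ages do not overlap for Cxcl9, Ccl6, Ccr6 and Cxcr2, and they overlap for Ccl4, Ccl24 and Ccl7. With positive controls alone Ccl24 and Ccr6 turn lower at P28, on a scale where the median of all 366 genes is -0.74.

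Cxcl9, a ligand of Cxcr3 that is known for its induction by interferon gamma, had the largest fold change of the 25 genes. At P14 its scaled count was 12.4 in the lowest sample, 14.9 at the median and 25.0 in the highest. At P28 these were 87.3, 91.0 and 118. Only 2 P14 samples but all 6 P28 samples were above background, and the ages did not overlap. The log2 fold change was 2.49 ± 0.17 (SE, adjusted p = 2.45e-07, edgeR). Because most P14 counts lay under the threshold, its size depended on the treatment of background: it was 4.40 after subtraction of the negative probes and 1.68 with a pseudocount of 20, both with limma. Its neighbour on the chromosome, Cxcl10, with 1 gene between them, is another Cxcr3 ligand known for its induction by interferons. Cxcl10 ran from 34.6 through a median of 61.8 to 441 at P14, and from 21.3 through 31.0 to 119 at P28. The ages overlapped, the highest values came from P14 sample 25 and P28 sample 138, and the change was not called (-1.48 ± 0.65, adjusted p = 0.0989). It was called lower without P14 samples 4 and 5 (-1.89, adjusted p = 0.0298) and without P28 sample 138 (-2.08, adjusted p = 0.0260). Without P14 sample 25 the estimate was -0.37 (adjusted p = 0.569). P14 sample 25, with the high Cxcl10, had scaled counts of 19.8 for Cxcl9 and 16.2 for Cxcl11, within the range of the other P14 samples for each. Cxcl11, the remaining Cxcr3 ligand, was above background in 2 P14 samples and 1 P28 sample and was not tested in the main fit. Cxcr3, their receptor, known best from T and NK cells, exceeded the threshold in 5 P14 samples and 1 P28 sample, with a change that was not called (-0.41 ± 0.17, adjusted p = 0.0879). It was called lower with P14 sample 16 left out (-0.50, adjusted p = 0.0389) and with P28 sample 119 left out (-0.50, adjusted p = 0.0474). With each sample left out in turn, Cxcr3 ranged from -0.50 to -0.35, with adjusted p up to 0.172.

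The sequence upstream of the start of Cxcl9 and of Cxcl10 was searched for motifs, and no searched motif was found in both windows. The 250 bases before the annotated start, from RefSeq on GRCm38.p6, are printed 5′ to 3′ on the strand of the gene, with matches to searched motifs in capitals.
Cxcl9, chr5:92328080-92328329, minus strand: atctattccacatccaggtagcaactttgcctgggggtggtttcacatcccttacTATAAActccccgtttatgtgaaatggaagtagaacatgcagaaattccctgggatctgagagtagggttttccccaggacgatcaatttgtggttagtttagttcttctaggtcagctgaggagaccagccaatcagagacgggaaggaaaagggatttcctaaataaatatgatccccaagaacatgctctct
Cxcl10, chr5:92348890-92349139, minus strand: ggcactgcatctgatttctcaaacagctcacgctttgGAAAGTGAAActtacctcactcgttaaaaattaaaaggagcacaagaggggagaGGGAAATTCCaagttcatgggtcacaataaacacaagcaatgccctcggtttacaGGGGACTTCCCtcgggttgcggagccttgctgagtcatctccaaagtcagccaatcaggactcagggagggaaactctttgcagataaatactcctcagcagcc
In Cxcl9 the capitals mark TATAAA, which begins 195 bases before the start. In Cxcl10 they mark 1 match to the interferon-stimulated response element (ISRE), beginning 213 bases before the start, and 3 matches to the NF-kB consensus at 159, 104 and 103 bases, the last pair overlapping. No match to the interferon gamma activated site letters TTCNNNGAA was found in either window. A match is a description of letters and not a measured binding site, and the absence of a match concerns these windows only.

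Ccl6, a CC chemokine of mouse macrophages that acts through Ccr1, was higher in every P28 sample than in any P14 sample. Its scaled count was 121 in the lowest P14 sample, 146 at the median and 208 in the highest, and 507, 573 and 749 at P28. All 12 samples were above background. The log2 fold change was 1.98 ± 0.16 (adjusted p = 3.49e-07), a 3.94-fold rise. Ccl6 lies directly between Ccl9 and Ccl3 in the order of protein-coding genes, and Ccl4 follows Ccl3. Ccl9, another Ccr1 ligand, was above background in 1 P14 sample and 0 P28 samples. The 250 bases before the start of Ccl6, shown as the counterpart of the Cxcl10 window, held none of the 6 searched motifs.
Ccl6, chr11:83593088-83593337, minus strand: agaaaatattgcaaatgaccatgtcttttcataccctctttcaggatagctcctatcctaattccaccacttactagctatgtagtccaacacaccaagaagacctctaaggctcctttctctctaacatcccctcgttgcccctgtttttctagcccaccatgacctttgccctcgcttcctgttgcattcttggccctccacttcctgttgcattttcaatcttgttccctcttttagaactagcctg

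Ccl3 and Ccl4 are neighbouring genes for inflammatory ligands of macrophages, and Ccl4 rose while Ccl3 was not called. Ccl4 ran from 436 through a median of 752 to 1778 at P14 and from 1003 through 1652 to 3045 at P28. P14 sample 4 alone lay above the lowest P28 sample, and the change was called (1.06 ± 0.32, adjusted p = 0.0206). The call was lost without P28 sample 118 (0.85, adjusted p = 0.0528) and with positive controls alone (0.49, adjusted p = 0.274). Ccl3 ran from 2513 through 3749 to 6633 at P14 and from 2100 through 3494 to 5784 at P28, with a log2 fold change of -0.10 ± 0.26 that was not called (adjusted p = 0.808). In both genes the highest P14 value was sample 4 and the highest P28 value was sample 118. The raw count of Ccl4 as a percentage of that of Ccl3 was 12.2% to 31.1% at P14 (median 20.7%) and 45.1% to 52.7% at P28 (median 48.0%). These ratios did not overlap between the ages; the pair was picked after its values were seen, so this is a description with no test.

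Ccl24, an eotaxin that attracts eosinophils through Ccr3 and is made by macrophages, rose by a smaller amount. It ran from 53.0 through 64.0 to 83.7 at P14 and from 75.3 through 95.2 to 126 at P28, with overlapping ages (0.54 ± 0.16, adjusted p = 0.0172). With positive controls alone its log2 fold change was -0.14, which is 0.60 above the panel median on that scale. The call was also lost with total counts (0.40, adjusted p = 0.0899) and without Polr1b among the reference genes (0.43, adjusted p = 0.0543). Ccl26, its direct neighbour and another eotaxin, was never above background, and Ccl11, the founding eotaxin, was above it in 1 sample of each age. Ccr3, the eotaxin receptor, exceeded the threshold in 4 P14 and 3 P28 samples and was not called (-0.29 ± 0.37, adjusted p = 0.604); P14 sample 5 had the lowest value, 2.47.

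Among the monocyte chemoattractants, Ccl7 was the only ligand that fell in the main fit. Ccl7 ran from 74.2 through 102 to 117 at P14 and from 56.0 through 73.2 to 76.9 at P28. The overlap came from P14 sample 5, the lowest P14 sample, and the log2 fold change was -0.54 ± 0.14 (adjusted p = 0.00878). Ccl2, its direct neighbour and the main ligand of Ccr2, ran from 148 through 285 to 529.9 at P14 and from 168 through 198 to 262 at P28. Its estimate was as low as that of Ccl7 but its error was larger (-0.55 ± 0.25, adjusted p = 0.102), and P14 sample 16 was the highest. Without P14 sample 25, the lowest P14 sample, Ccl2 was called lower (-0.69, adjusted p = 0.0216), and without P14 sample 16 the estimate was -0.31 (adjusted p = 0.270). Ccl12, a further Ccr2 ligand of the mouse, ran from 1227 through 1990 to 3347 at P14 and from 1499.9 through 1734 to 2058 at P28 and was not called (-0.23 ± 0.22, adjusted p = 0.470). P14 samples 4 and 5 were the highest in Ccl12, and without them its log2 fold change was 0.13. Ccl8, next to Ccl12, was never above background. Ccr2, the receptor of this group and a marker of monocytes, ran from 93.8 through 162 to 320 at P14 and from 171 through 233 to 313 at P28. It was not called (0.42 ± 0.27, adjusted p = 0.267). With positive controls alone Ccr2 turned negative (-0.44), a value 0.30 above the panel median on that scale. Without P14 sample 16, the highest P14 sample, it was called higher (0.68, adjusted p = 0.0428). With each sample left out in turn, Ccr2 ranged from 0.29 to 0.68, with adjusted p up to 0.466.

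The other present ligands were near background. Ccl20, the ligand of Ccr6, exceeded the threshold in 5 P14 and 2 P28 samples (-0.46 ± 0.20, adjusted p = 0.0924). Without P28 sample 138, its highest P28 sample, Ccl20 was called lower (-0.59, adjusted p = 0.0256). With each sample left out in turn, Ccl20 ranged from -0.59 to -0.36, with adjusted p up to 0.174. Ccl25, a thymic and intestinal ligand of Ccr9, was above the threshold in 6 P14 and 5 P28 samples (-0.36 ± 0.17, adjusted p = 0.113). Without P14 sample 81, its lowest P14 sample, Ccl25 was called lower (-0.46, adjusted p = 0.0364). Its range with each sample left out was -0.46 to -0.28, with adjusted p up to 0.249. Cxcl12, the homeostatic ligand of Cxcr4, was above the threshold in 6 P14 and 5 P28 samples (0.13 ± 0.21, adjusted p = 0.667). With positive controls alone Cxcl12 was -0.57, which is 0.17 above the panel median on that scale. None of the 3 was called in the main fit.

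Ccr6, the receptor of Ccl20 and known for lymphocyte and dendritic cell traffic, was the only receptor that rose. It ran from 11242 through 13912 to 15310 at P14 and from 16644 through 18475 to 20629 at P28, with no overlap. The log2 fold change was 0.47 ± 0.10 (adjusted p = 0.00328). With positive controls alone it was -0.30, which is 0.43 above the panel median on that scale. P14 samples 4 and 5 were the lowest, and without them it was 0.36 (adjusted p = 0.00416).

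Cxcr2, the receptor of the neutrophil-attracting CXC ligands, was the receptor that fell. All 6 P14 samples were above background, running from 37.1 through 44.3 to 59.5, and 0 of 6 P28 samples were, where counts ran from 10.3 through 14.0 to 18.7. The ages did not overlap, and measured against the lane thresholds of P28 the level was at least 1.83-fold lower. The fitted log2 fold change was -1.74 ± 0.16 (adjusted p = 1.45e-06); as the P28 counts are background, its size is set by the background, with -0.97 at a pseudocount of 20 and -4.08 after background subtraction. Cxcr1, the direct neighbour of Cxcr2, was above background in 2 P14 samples and 0 P28 samples. The Cxcr2 ligands Cxcl1 and Cxcl3 were never above background. Cxcl15, another CXC ligand of that gene cluster, exceeded the threshold in 4 P14 samples and 0 P28 samples (17.1 to 29.9 and 11.0 to 16.2 scaled counts), with no overlap but too few samples above background to be present.
Cxcr2, chr1:74153744-74153993, plus strand: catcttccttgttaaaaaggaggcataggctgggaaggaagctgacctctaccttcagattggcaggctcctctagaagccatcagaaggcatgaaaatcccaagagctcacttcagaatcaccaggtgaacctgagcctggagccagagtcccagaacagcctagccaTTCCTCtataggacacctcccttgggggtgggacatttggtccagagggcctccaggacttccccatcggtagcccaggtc
The window before the start of Cxcr2 is shown because the gene is the clearest fall of the family, and its capitals mark the reverse complement of GAGGAA, the core letters bound by the myeloid factor PU.1, beginning 81 bases before the start. Neutrophil genes were at or near background at both ages: S100a9 was never above it, and S100a8 and Camp were each above it in 2 P14 samples and 0 P28 samples. Ltf was above it in 5 and 2 samples and was not called (-0.13 ± 0.17, adjusted p = 0.613). The summed level of the 5 neutrophil genes was 2829 to 8669 at P14 and 4179 to 8259 at P28, most of it Csf3r, which microglia also express. The part of other cells in the Cxcr2 result was not tested.

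The calls of Cxcr6, Ccr9 and Ccrl2 changed when P14 samples 4 and 5 were left out. Cxcr6, the receptor of Cxcl16, known from T and NK cells, ran from 71.7 through 209 to 342 at P14 and from 121 through 182 to 239.5 at P28 (-0.15 ± 0.32, adjusted p = 0.742). The P14 samples spread over the whole P28 range, with sample 16 the highest and samples 4 and 5 the lowest. Without P14 samples 4 and 5 Cxcr6 was called lower (-0.51, adjusted p = 0.0498). Ccr9, the receptor of Ccl25, was not called in the main fit (-0.51 ± 0.26, adjusted p = 0.145) and was called lower without them (-0.72, adjusted p = 0.0230) and with positive controls alone (-1.27, adjusted p = 0.0220). Ccrl2, which presents the ligand chemerin and does not signal, was called higher without them (0.68, adjusted p = 0.0172) and not with them (0.38 ± 0.23, adjusted p = 0.230).

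**Figure D3:**
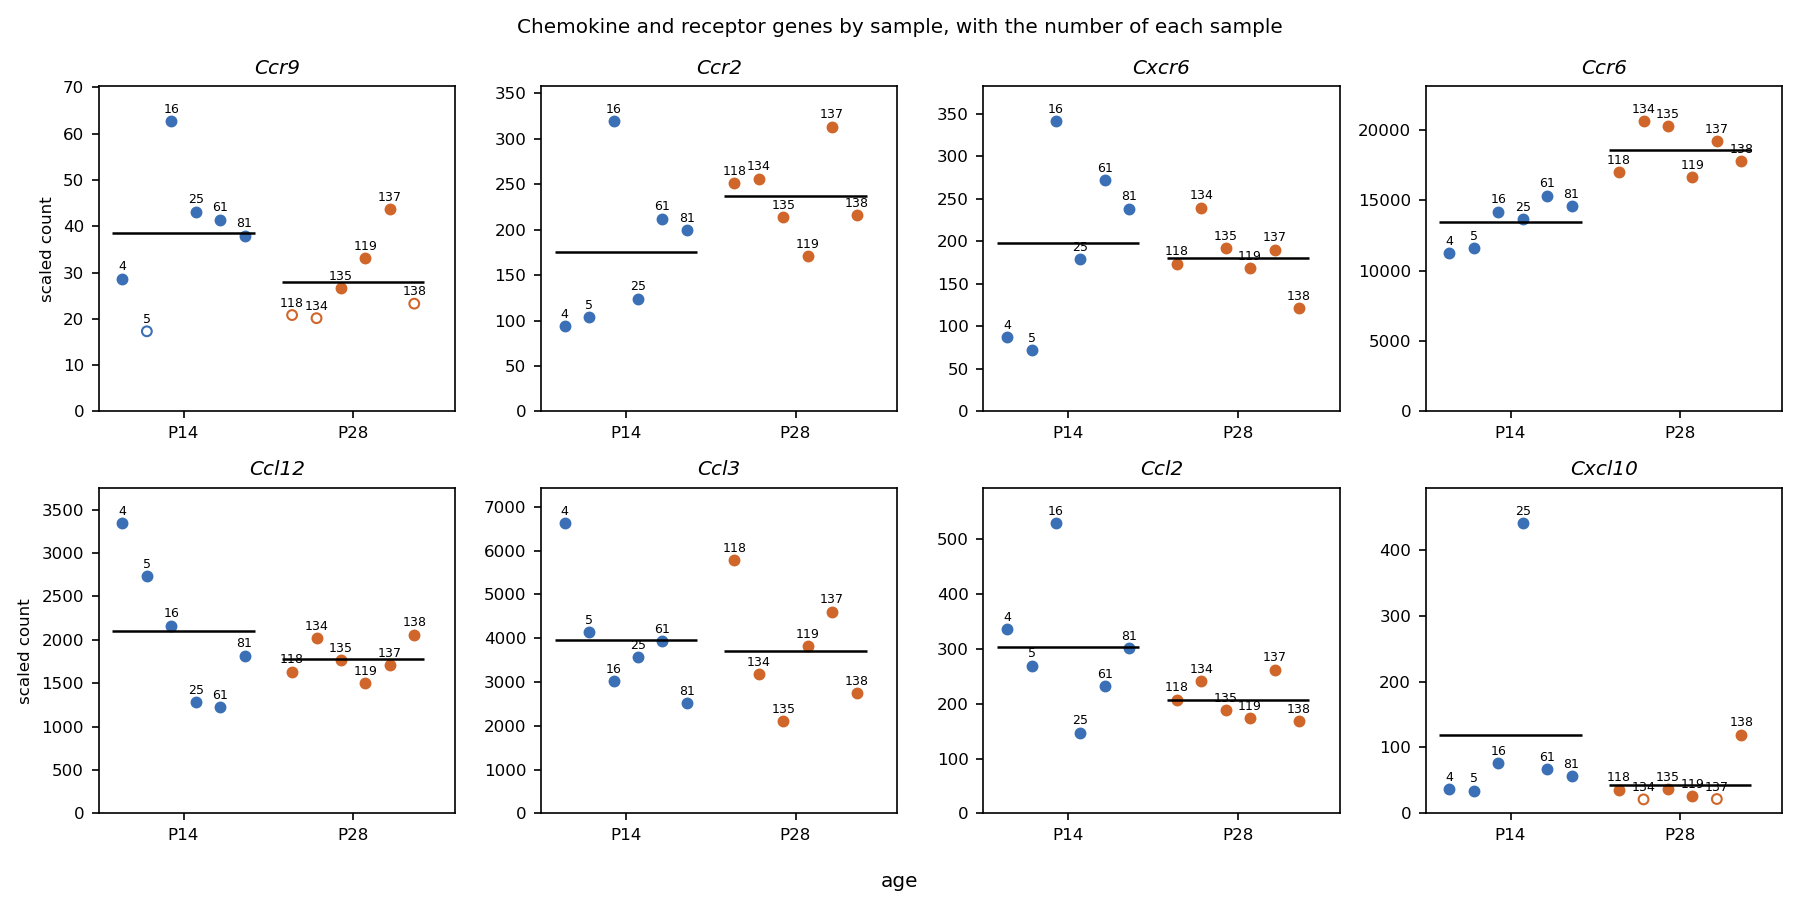
Scaled counts of Ccr9, Ccr2, Cxcr6, Ccr6, Ccl12, Ccl3, Ccl2 and Cxcl10 in each sample, numbered, on linear axes from 0, with lines at the mean of the 6 samples of an age and open points below the lane threshold. P14 samples 4 and 5 are the lowest P14 samples in Ccr9, Ccr2, Cxcr6, Ccr6 and Cxcl10 and the highest in Ccl12 and Ccl3, and P14 sample 25 and P28 sample 138 stand above the rest in Cxcl10.

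The remaining present receptors lay close to the lane thresholds. Cxcr4, the Cxcl12 receptor, exceeded the threshold in 6 P14 and 5 P28 samples (-0.25 ± 0.21, adjusted p = 0.413). Cxcr5, the receptor of the lymphoid ligand Cxcl13, was above it in 5 and 6 samples (-0.17 ± 0.23, adjusted p = 0.615), and Cxcl13 was never above it. Ccrl1, an atypical scavenger of Ccl19 and Ccl25 now named Ackr4, was above it in 5 samples of each age (-0.01 ± 0.22, adjusted p = 0.976). These pairs include both cases, a receptor with a measurable ligand and a receptor whose ligand was at background. Ccr8, a receptor of mouse Ccl8, was not called (0.37 ± 0.23, adjusted p = 0.251). With positive controls alone its log2 fold change was -0.31, which is 0.42 above the panel median on that scale. Ccr8 was above background in 3 and 2 samples. Ccr7, which binds Ccl19 and guides cells to lymph nodes, was above it in 2 samples of each age. Ccr10, a receptor of skin homing, was above it in 1 sample of each age and Xcr1, the receptor of Xcl1 on dendritic cells, in 1 P14 sample.

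Over all 25 genes, the scale and the doubtful samples moved the number of falls more than that of rises. Scaled to positive controls alone, the log2 fold changes of all 366 genes had a median of -0.74, and those of the family -0.95. With total counts, and without Polr1b, Ccl2, Ccl20, Ccl25 and Cxcr3 joined the 2 falls. Of all 366 genes, 96 were called lower with total counts and 74 without Polr1b, against 51 in the main fit. With positive controls alone 2 genes rose (Cxcl9 and Ccl6) and 11 fell, against 2.19% higher and 34.7% lower for the panel. Among the 11 were Ccl2, Ccl7, Ccl12, Ccl20, Ccl25, Cxcl10, Ccr9, Cxcr2, Cxcr3 and Cxcr5. Without P14 samples 4 and 5, 6 genes rose and 6 fell, against 18.6% higher and 24.6% lower; the falls included Ccl7, Cxcl10, Ccr9, Cxcr2 and Cxcr6. With all 42 genes tested and no presence rule, 6 rose and 3 fell, against 12.3% higher and 10.3% lower of 545 genes. This added Ccr10 as a rise (adjusted p = 0.0309) and Cxcl15 as a fall (adjusted p = 0.0064), both mostly under the lane threshold. Ccr10 was above it in 1 sample of each age, and Cxcl15 in 4 P14 and 0 P28 samples. The P14 mean of Cxcl15, 22.6, was under the mean scaled lane threshold of P28, 25.5. Ccl6, Ccl7, Cxcl9 and Cxcr2 were called in the same direction in the main fit and on all of these scales.

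**Figure D4:**
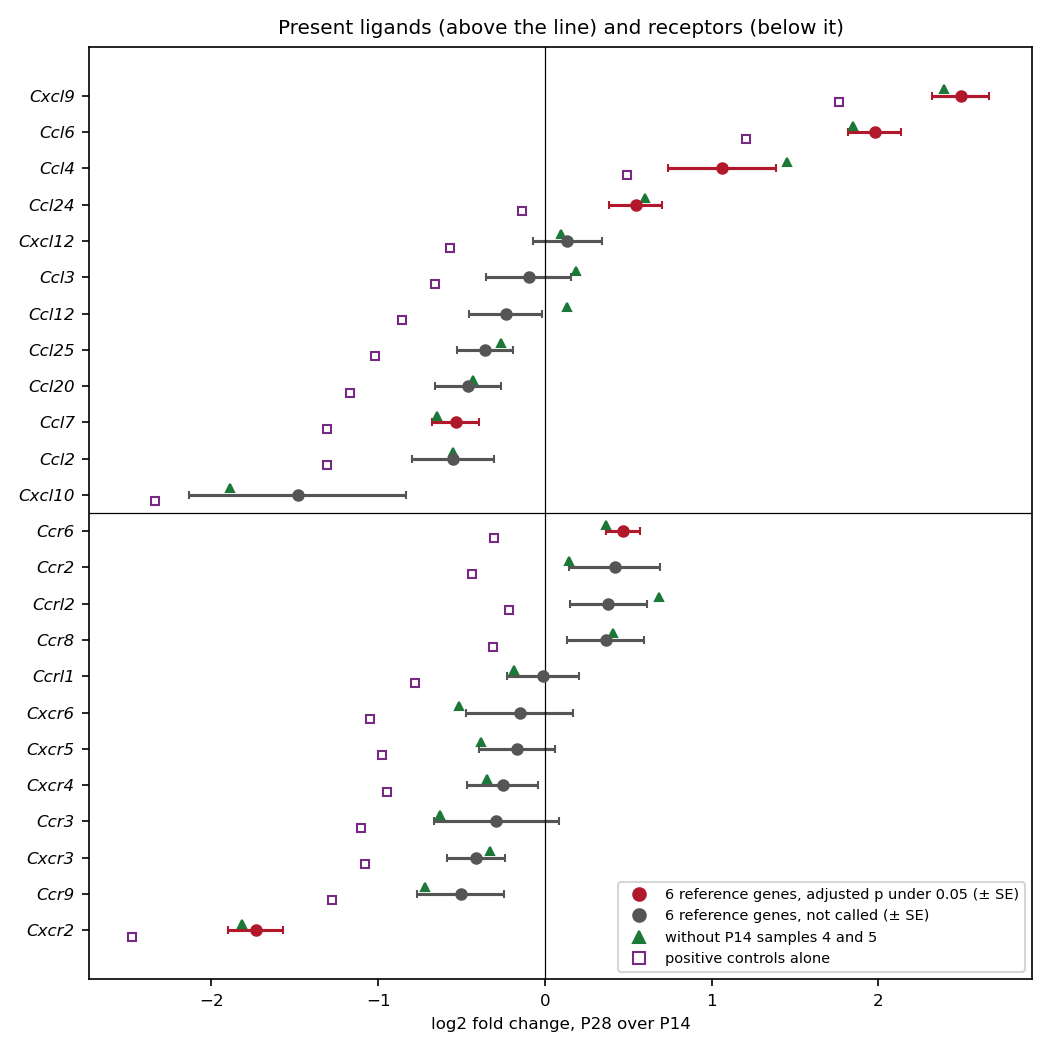
Log2 fold change (P28 over P14) with its SE for the 12 present ligands (above the line) and 12 of the 13 present receptors (below it), from the 6 reference genes (circles, red where the adjusted p is under 0.05), without P14 samples 4 and 5 (triangles) and with positive controls alone (squares). Cxcl9 and Ccl6 are highest and Cxcr2 is lowest of the circles. The squares lie below 0 for 9 ligands, Ccl24 and Cxcl12 among them, and for all receptors shown, including Ccr6. With positive controls alone the median of all 366 genes is -0.74.

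The spread between P14 animals was larger than that between P28 animals for most of the family. The coefficient of variation was larger at P14 in 22 of 25 genes (88.0%), against 72.7% of all 366 genes, with medians of 36.2% at P14 and 20.6% at P28 for the family. Without P14 samples 4 and 5, it was larger at P14 in 15 of 25 genes (60.0%), against 42.3% of all genes. Both of those samples lay below the other P14 samples in 13 of the 25 genes, 9 of them receptors, and above them in Ccl12, Ccl3 and Ccrl2. For Cxcr6, the highest P14 sample was 4.76 times the lowest, and the highest P28 sample was 1.97 times the lowest.

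Of 45 further genes of chemokine signalling, 21 were on the panel and 19 were present, of which 2 rose, 2 fell and 15 were not called, against 16.7% higher and 13.9% lower for the panel. Cmklr1, the chemerin receptor, rose from 4632 ± 386 to 6556 ± 1309 scaled counts (0.50 ± 0.13, adjusted p = 0.00812), and the NF-kB subunit gene Rela rose (0.47 ± 0.15, adjusted p = 0.0225). Nfkb1, which encodes another subunit, fell from 4747 ± 1257 to 2955 ± 382 (-0.68 ± 0.18, adjusted p = 0.00818). Cx3cl1, the fractalkine ligand, was above background in 5 P14 samples and 0 P28 samples and was called lower. Its P14 mean was 27.0 scaled counts, close to the mean scaled lane threshold of 25.5 at P28. The size of the fall is therefore limited by background. The receptor of Cx3cl1, the microglial gene Cx3cr1, was not called (-0.18 ± 0.12, adjusted p = 0.265). The median log2 fold change of the 19 genes was -0.0032.

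Markers of the sorted cells and of other cells were read in the same samples. The 8 microglial genes on the panel were present and summed to 235893 to 295732 at P14 and 263980 to 299208 at P28. Of 12 T cell genes, 4 were present: Cd5 rose, Lck fell and the others were not called. Cd3e, Cd2 and Cd28 were never above background, and the list summed to 348 to 587 at P14 and 465 to 584 at P28. Of 4 monocyte genes, leaving out Ccr2, Itgal fell and was above background in 6 P14 and 0 P28 samples. The list summed to 97.1 to 137 and 73.4 to 121. Among the NK cell genes, 6 on the panel, Gzmb was never above background, Gzma and Klrk1 fell and Klrd1 rose. Gzma and Klrk1 were each above background in 5 P14 and 0 P28 samples, and Klrd1 in 2 and 6. The sizes of the falls of Itgal, Gzma and Klrk1 are limited by background. The NK cell list summed to 91.5 to 219 and 215 to 327. The 4 dendritic cell genes summed to 918 to 1615 and 1858 to 2368, and Itgax and Cd83 rose. Of 2 border macrophage genes, leaving out Ccl24, Marco was never above background and Cd163 was above it in 1 P14 sample, with sums of 18.2 to 42.0 and 14.6 to 30.5. The part of the NK and dendritic cell genes in the rises of Cxcl9, Ccl6 and Ccr6 was not tested.

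Across the family, 31 of the 42 genes had a RefSeq promoter window, and motif counts were set beside those in all 27025 windows of the same length, on both strands and with overlapping matches counted. TATAAA was found in 10 of the 31 windows and in 13.0% of all, the NF-kB consensus in 7 and in 7.01% of all, and GAGGAA in 8 and in 23.1% of all. GGGCGG, the GC box, was found in 4 windows and in 32.9% of all. The NF-kB matches lay before Ccl9, Ccl20, Cxcl1, Cxcl3, Cxcl10, Ccr3 and Ccrl2; the main fit tested Ccl20, Cxcl10, Ccr3 and Ccrl2 of these and called none. The ISRE was found before Ccl19 and Cxcl10 (3.04% of all windows) and TTCNNNGAA before Ccr6 (7.18%). Of the 42 symbols, 41 matched a RefSeq gene by accession.

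In the authors' deposited table, 20 of the 42 genes are among its 336, and 5 of them have a p under 0.05. The authors' deposited table gives P28 over P14 folds of 4.34 for Ccl6, 2.24 for Ccl4 (p = 0.0141), 1.58 for Ccl24 (p = 0.0013), 1.51 for Ccr6 (p = 0.0001) and 0.76 for Ccl7 (p = 0.0076). The authors' deposited table lists Cxcl10 at 0.41 (p = 0.3188). Each of the 5 genes with a p under 0.05 was also called in the main fit, with the same direction. Cxcl9 and Cxcr2, the other called genes, are not among the authors' 336 genes. The authors' p is from a t-test on the same 12 samples.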

How the data were processed

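Microglial RNA of 12 samples, 6 per age, was measured; per the labels' protocols, 2 ng of RNA were amplified with 5 rounds of PCR, so counts include copies of the same molecules and counting error is a lower limit. The deposited raw table holds barcode counts, not scaled; total counts per sample are given above. A second deposited table holds values the authors scaled to positive controls and reference genes, used as a score, with the authors' fold (a ratio of means) and p-value per gene, per the file headers. The sources used here do not name the counting software. The design text says 5 reference genes and lists 6; all 6 were used.

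Titles gave each sample's age. The raw counts of present genes went through glmQLFit and glmQLFTest of edgeR 4.0.16 under R 4.3.3, with the 6 reference genes as offset and Benjamini-Hochberg adjustment over 366 genes at 0.05; p-values of genes given above are from it unless another tool is named. The SE is the log2 fold change over the root of F. Where no sample of an age was above background, the fold is a bound against the mean scaled lane threshold. Genes named in full are those called, those without overlap and the 4 ligands and 4 receptors with the largest mean; Ccl2 and Cxcl10, outside that rule, were added after their values were seen. Cell type and pathway genes come from written lists. A receptor of the family and some marker genes are in the counts and sums but are not reported here by name. The genes and the lists were chosen with earlier results of these data known.

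Alternatives were DESeq2 1.42.0, limma 3.58.1 (pseudocount 1 or 20), other scalings, presence rules and thresholds (3 SD), each sample left out in turn, and P14 samples 4 and 5 left out, the last added after seeing the data. The edgeR steps were tested on simulated data. No 2 samples of an age agreed within counting noise (0 of 30 pairs, chi-square test). Promoter sequences and neighbour order come from RefSeq tables of GRCm38.p6; the first window of a gene was used, cut to the 250 bases before the start. Columns of samples outside the labels numbered 0. B cell, endothelial and mural, mast cell and oligodendrocyte lists are given in the closing section.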

Additional observations from a re-analysis of the deposited data

Results flagged for a closer look

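Among the 25 present genes of the family, Cxcl10 was the only one in which a sample stood far from the others of its age. The measure was the gap to the next sample over the range of the 6, on a log2 scale (critical value 0.625). P14 sample 25 had 441 scaled counts (440.764 before rounding), and the next, P14 sample 16, had 76.2, a gap of 0.693 of the log2 range. P28 sample 138 had 119 (119.467 before rounding), and the next, P28 sample 135, had 37.2, a gap of 0.680 of the log2 range. In all, 50 groups of 6 were examined (25 genes at 2 ages) and 2 passed, where chance gives about 1 in 20. Cxcl9 in the same samples was 19.8 and 118, and P28 sample 138 held the highest Cxcl9 of its age.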

How the results depend on the processing

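No paired analysis was possible because the ages share no replicate number. Ccl6 and Ccl7 kept their direction and call in all 28 alternatives, and Cxcl9 and Cxcr2 in the 27 that held them; log2 fold changes ranged from 1.21 to 2.12 for Ccl6, -1.31 to -0.38 for Ccl7, 1.68 to 4.40 for Cxcl9 and -4.08 to -0.97 for Cxcr2. The count of rises (5) was 2 with positive controls alone and 4 to 6 with a sample left out. The count of falls (2) was 1 on the authors' values, 6 with total counts, 6 without Polr1b, 11 with positive controls alone, 6 without P14 samples 4 and 5, and 2 to 4 with a sample left out. Falls over all 366 genes also moved, from 51 in the main fit to 96 with total counts and 74 without Polr1b. They were 127 with positive controls alone and 90 without P14 samples 4 and 5. The authors' values hold fewer genes (20 of the 25). The cause of the other shifts was not tested.

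Signs turned for some genes. With positive controls alone, Ccl24 was -0.14, Ccr6 -0.30, Ccr2 -0.44, Ccr8 -0.31, Ccrl2 -0.22 and Cxcl12 -0.57. The median of all 366 genes on that scale was -0.74, and each of these genes lay above it. With limma on log2 scaled counts, Ccr3 was 0.17, Ccrl1 0.071 and Cxcr6 0.052. On the authors' values, Ccl3 was 0.015, Ccrl1 0.18, Cxcr5 0.11 and Cxcr6 0.17. A pseudocount of 20 gave 0.034 for Ccrl1 and 0.026 for Cxcr6, and background subtraction gave 0.50 for Ccrl1, 0.32 for Cxcr5 and 0.090 for Cxcr6. Total counts gave -0.0081 for Cxcl12, all 14 reference genes 0.081 for Ccrl1, and the authors' factors 0.0061 for Ccl3 and 0.12 for Ccrl1. Without P14 samples 4 and 5, Ccl12 was 0.13 and Ccl3 0.19. With a sample left out, Ccl3 ranged from -0.27 to 0.11, Ccrl1 from -0.14 to 0.14 and Cxcr6 from -0.31 to 0.071. With the lane threshold at 3 SD, 7.0 receptors per P28 sample were above background on average, and 11.2 with the highest negative probe as threshold, against 9.5. Genes near the lane threshold, such as Ccr8, Ccrl1, Cxcr3 and Ccl20, were limited by background.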

Other observations

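Lists of further cell types were read in the same samples as the chemokine genes. Of 6 B cell genes, Pax5 was never above background, Cd79a rose and Cd79b fell, and the list summed to 2594 to 4683 scaled counts at P14 and 3458 to 4986 at P28. The 5 endothelial and mural cell genes summed to 3093 to 4867 and 6201 to 14641, with Cd34 and Pdgfrb higher and Cdh5 lower. The mean of Cd34 was 1198 at P14 and 6972 at P28, so the rise of the sum was mostly that of Cd34. The means were 494 and 660 for Pdgfrb and 329 and 213 for Cdh5. Of 2 mast cell genes, Fcer1a was never above background. Mbp, the oligodendrocyte gene of the panel, rose, from 126 to 272 at P14 to 189 to 1091 at P28. The part of these cells in the chemokine results was not tested.

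Ratios of raw counts within the Ccl2 gene cluster, taken within each sample and so free of scaling, overlapped between the ages. Ccl7 per Ccl2 was 0.204 to 0.750 at P14 and 0.287 to 0.440 at P28, and Ccl12 per Ccl2 was 4.09 to 10.1 and 6.50 to 12.2. These pairs were picked after their values were seen and were not tested.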
